A study of Mus musculus with 6 samples.

Results

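The PYHIN genes, also called the Ifi200 family, lie side by side on mouse chromosome 1, and 6 of the 23337 genes of the deposited count table are described here: Aim2, Ifi204, Mndal, Mnda, Ifi203 and Ifi205. They were picked by name with their counts in these libraries already known. Their levels and changes are therefore given as a description, and no test of the drug effect is reported for them. The libraries come from granulocyte-monocyte progenitors of C57BL6 mouse bone marrow that carry ER-HOXA9, a fusion of the homeobox factor HOXA9 to the estrogen receptor that keeps such cells immature and dividing while beta-estradiol is in the medium. All 3 groups, with 2 biological replicates each, grew in RPMI medium with 10% heat-inactivated serum, glutamine, stem cell factor and 0.5 µM beta-estradiol. The first group had 3 drugs together for 3 days. GSK-LSD1, at 200 nM, blocks LSD1, which removes methyl groups from histone H3. Mercaptopurine, at 5 µM, is a purine analogue that disturbs nucleotide synthesis, and cerulenin, at 5 µM, blocks the making of fatty acids. Of the other groups, one had the solvent DMSO (vehicle) for 3 days, and one was untreated at day 0. The drugs were given only in combination, so their separate effects cannot be told apart, and the ER-HOXA9 fusion and beta-estradiol were present in every group. Polyadenylated RNA was sequenced, and total counts per library were 12290882 and 15310378 with the drugs, 12459793 and 11305666 with vehicle, and 16948697 and 13139172 in untreated cells.

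A typical PYHIN protein joins a PYRIN domain, which pairs with PYRIN domains of other proteins, to 1 or more HIN domains, which bind DNA. AIM2 is the member that binds double-stranded DNA in the cytosol and assembles an inflammasome with the adaptor ASC and caspase-1, which cleaves pro-interleukin-18 and pro-interleukin-1 beta. Most of the other mouse members are found mainly in the nucleus, many were first found as transcripts induced by interferon, and p204, the product of Ifi204, has been described as a partner of the retinoblastoma protein, as a factor in monocyte and macrophage differentiation and as a DNA sensor that acts with STING. The human relatives are AIM2, IFI16, MNDA and PYHIN1.

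The locus spans 611.2 kb of mm10, with 12 PYHIN genes in the table, 6 of them the genes described here. In this build Aim2 occupies positions 173420604 to 173466036 on the plus strand. The other 5 lie on the minus strand, Ifi204 at 173747294 to 173766919, Mndal at 173857220 to 173880187, Mnda at 173896355 to 173912922, Ifi203 at 173920403 to 173942492 and Ifi205 at 174011998 to 174031755. The gene that the table calls Mnda is now named Ifi211 in RefSeq and is not to be equated with human MNDA, the myeloid nuclear differentiation antigen. The promoter windows of 5 of the 6 genes were read from RefSeq (GRCm38.p6, the same build as mm10), each with the 250 bases before the gene's start and the 50 after it. They are shown because all 5 genes were higher with the drugs and because the windows differ in the words they hold. Capitals mark matches, on either strand, to 6 words. They are the interferon-stimulated response element (ISRE, GAAA and GAAA with any 2 bases between), the gamma-activated site (GAS, TTC and GAA with any 3 between), an ETS-IRF composite (GGAA and GAAA with any 2 between), a PU.1 word (AGGAAGT), a C/EBP word (TTGC and AA with any 2 between) and a GFI1 word (AAATCAC). Overlapping matches were allowed. The windows are chr1:173420354-173420653 on the plus strand for Aim2 and, on the minus strand, chr1:173880138-173880437 for Mndal, chr1:173942443-173942742 for Ifi203, chr1:173912997-173913296 for Mnda and chr1:174031706-174032005 for Ifi205. The RefSeq start site of Mnda lies 124 bp from the gene end in the count table.
Aim2: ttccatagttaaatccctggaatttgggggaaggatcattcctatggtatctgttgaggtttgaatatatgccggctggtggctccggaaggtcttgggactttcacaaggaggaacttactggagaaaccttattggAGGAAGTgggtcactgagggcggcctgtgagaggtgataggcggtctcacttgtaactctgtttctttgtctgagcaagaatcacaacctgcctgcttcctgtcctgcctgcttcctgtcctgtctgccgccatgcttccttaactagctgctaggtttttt
Mndal: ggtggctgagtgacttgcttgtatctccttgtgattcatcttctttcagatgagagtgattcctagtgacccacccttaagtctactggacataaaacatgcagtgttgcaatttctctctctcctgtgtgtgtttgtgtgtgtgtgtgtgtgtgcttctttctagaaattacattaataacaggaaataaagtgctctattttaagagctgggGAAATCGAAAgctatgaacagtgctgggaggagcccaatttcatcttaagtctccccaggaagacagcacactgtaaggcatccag
Ifi203: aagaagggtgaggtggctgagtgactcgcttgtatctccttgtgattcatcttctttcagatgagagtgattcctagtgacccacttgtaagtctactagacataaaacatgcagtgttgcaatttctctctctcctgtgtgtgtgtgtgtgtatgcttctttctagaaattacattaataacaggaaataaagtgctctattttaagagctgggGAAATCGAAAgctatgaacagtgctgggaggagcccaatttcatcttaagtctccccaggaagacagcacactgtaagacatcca
Mnda: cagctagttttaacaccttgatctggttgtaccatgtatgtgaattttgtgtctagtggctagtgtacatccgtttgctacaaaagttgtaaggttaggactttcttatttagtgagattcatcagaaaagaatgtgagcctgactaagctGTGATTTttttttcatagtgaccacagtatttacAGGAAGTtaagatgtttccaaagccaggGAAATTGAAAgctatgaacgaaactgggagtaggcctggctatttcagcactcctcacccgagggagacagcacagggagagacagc
Ifi205: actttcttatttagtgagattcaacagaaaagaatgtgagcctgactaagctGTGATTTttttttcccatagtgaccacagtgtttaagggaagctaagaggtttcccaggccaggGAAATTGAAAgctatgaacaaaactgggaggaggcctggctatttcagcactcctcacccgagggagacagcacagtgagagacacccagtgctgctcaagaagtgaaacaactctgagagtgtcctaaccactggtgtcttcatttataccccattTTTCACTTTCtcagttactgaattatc

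The ISRE word stood in 4 of these 5 windows, all but that of Aim2, and 3.44% of 32851 RefSeq mouse promoter windows hold it. The windows of BC094916, Pydc4, Pydc3 and AI607873, PYHIN genes of the locus with few or no counts, hold it too. Windows of such related genes are not independent of each other. The first base of the word lay at -36 in Mndal, -35 in Ifi203 and -37 in Mnda, counted from the start site as +1. In Ifi205 it lay at -134, and a second match on the opposite strand began at +24. Mndal and Ifi203 shared the letters GAAATCGAAA, while Mnda and Ifi205 shared GAAATTGAAA. By local alignment the windows of Mndal and Ifi203 were 94.3% identical over 299 columns, nearly their full length, and those of Mnda and Ifi205 were 93.5% identical over 201. Between Mndal and Mnda the best local alignment reached 66.9% over 142 columns. The windows of Mnda and Ifi205 also held the GFI1 word on the opposite strand, printed as GTGATTT, at -99 and -198, a word found in 3.2% of all windows. The PU.1 word, found in 9.35% of all windows, stood at -112 in Aim2 and at -65 in Mnda. None of the 5 windows held the GAS word (8.3% of all windows), the ETS-IRF word (2.72%) or the C/EBP word (10.8%). A match describes letters and shows no binding.

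**Figure D1:**
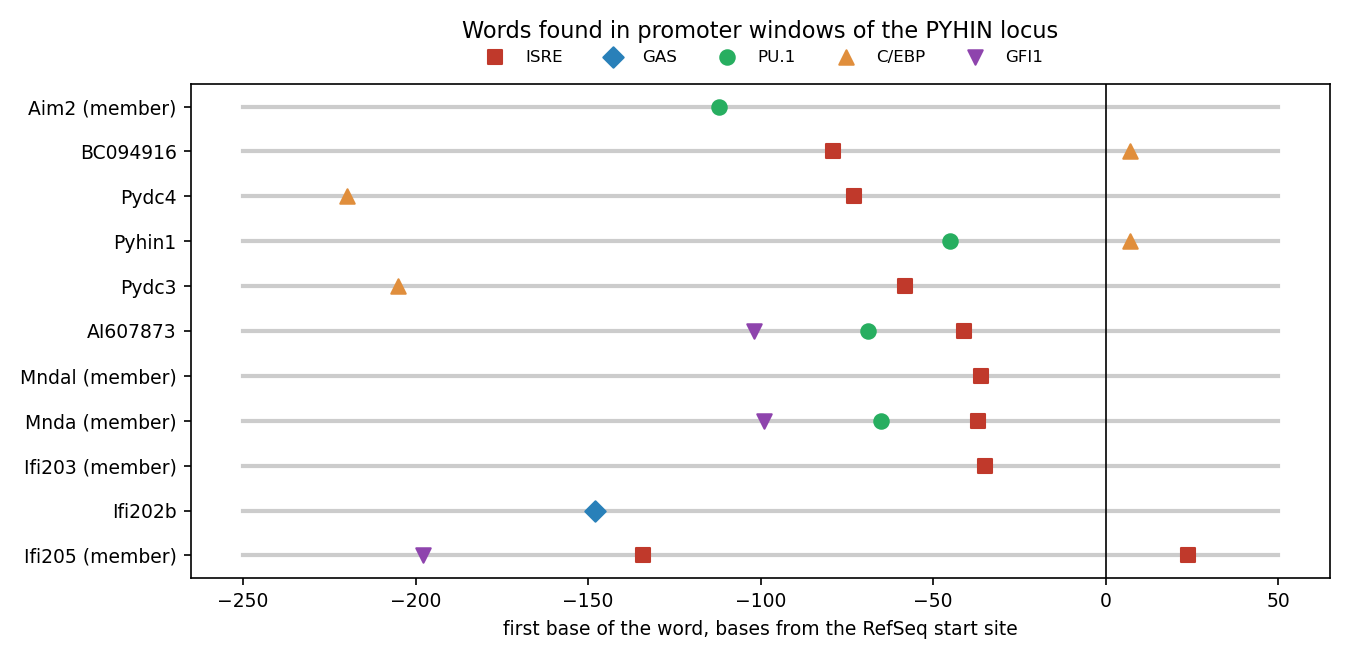
Position of each matched word in the RefSeq promoter windows of 11 PYHIN genes (x axis, bases from the start site; 1 row per gene in chromosomal order; marker shape and colour give the word). The ISRE squares of Mndal, Mnda and Ifi203 sit within 3 bases of each other, at -35 to -37, and Aim2 has none.

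With the drugs all 6 genes were higher than with vehicle and than at day 0, and the 2 drug libraries lay above all 4 other libraries for every gene. Over all tested genes, the drug libraries lay above vehicle without overlap for 35.1% and above day 0 for 37.2%. The share above all 4 was not computed. Since the 6 genes were chosen on these contrasts, nothing is read from that count. The size differed across the locus. Ifi204, Mnda and Ifi205, which were barely counted without the drugs, stood 12.6, 10.1 and 8.99 times higher with the drugs than with vehicle in the fit. Ifi203 and Mndal stood 4.38 and 3.22 times higher, and Aim2, already the highest member per length without the drugs, 1.40 times higher. Levels below are in CPM, a gene's count scaled to its library's total, after scaling of the libraries by the trimmed mean of M values (TMM).

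Aim2 encodes the cytosolic DNA sensor. Its counts were 593 and 747 with the drugs, 422 and 419 with vehicle, and 701 and 400 in untreated cells. In CPM this was 47.5 and 48.2 with the drugs, 33.4 and 35.0 with vehicle, and 41.9 and 33.2 in untreated cells. The drug libraries were the highest, vehicle fell inside the range of day 0, and the untreated replicates differed more from each other than the vehicle mean did from the untreated mean. The log2 change (± SE) was 0.49 ± 0.103 against vehicle and 0.34 ± 0.101 against day 0. Without untreated replicate 2 the change against day 0 was 0.18, and without untreated replicate 1 it was 0.52, so that value rests on which untreated library is used.

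Mndal, whose name stands for MNDA-like, encodes a nuclear PYHIN protein. Its counts were 327 and 382 with the drugs, 108 and 86 with vehicle, and 167 and 89 in untreated cells. These were 26.2 and 24.7 CPM with the drugs, 8.54 and 7.19 CPM with vehicle, and 9.99 and 7.40 CPM in untreated cells. The lower drug library was 2.89 times the higher vehicle library, and vehicle and day 0 overlapped. The log2 change was 1.69 ± 0.147 against vehicle and 1.52 ± 0.141 against day 0.

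Ifi203, the longest of the 6 with 3790 bp of exons, encodes a further nuclear member. Its counts were 197 and 226 with the drugs, 45 and 40 with vehicle, and 89 and 43 in untreated cells. In CPM this was 15.8 and 14.6 with the drugs, 3.56 and 3.34 with vehicle, and 5.32 and 3.57 in untreated cells. Both vehicle libraries lay under both untreated ones. The log2 change was 2.13 ± 0.185 against vehicle and 1.73 ± 0.170 against day 0.

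Ifi204 encodes p204. Its counts were 81 and 94 with the drugs, 9 and 3 with vehicle, and 7 and 5 in untreated cells. In CPM this was 6.49 and 6.07 with the drugs, 0.711 and 0.251 with vehicle, and 0.419 and 0.416 in untreated cells. Vehicle spanned the day 0 values on both sides. The log2 change was 3.66 ± 0.325 against vehicle and 3.88 ± 0.321 against day 0. The first of these depends on the 12 vehicle counts: it was 4.59 without vehicle replicate 1 and 3.11 without vehicle replicate 2. The ratio of summed counts per effective library total was 12.8 (95% interval 7.16 to 25.3, exact binomial, covering counting error only).

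Mnda had 95 and 113 counts with the drugs, 11 and 7 with vehicle, and 15 and 11 in untreated cells. These were 7.61 and 7.29 CPM with the drugs, 0.870 and 0.585 CPM with vehicle, and 0.897 and 0.914 CPM in untreated cells. The lower drug library was 8.39 times the higher vehicle library. The log2 change was 3.33 ± 0.259 against vehicle and 3.03 ± 0.237 against day 0, and the count ratio against vehicle was 10.2 (95% interval 6.27 to 17.5).

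Ifi205 encodes p205. It had 52 and 73 counts with the drugs, 7 and 5 with vehicle, and 14 and 10 in untreated cells, which made it the least counted of the 6 with the drugs. In CPM this was 4.17 and 4.71 with the drugs, 0.553 and 0.418 with vehicle, and 0.838 and 0.831 in untreated cells. Vehicle lay below day 0 in both libraries. The log2 change was 3.17 ± 0.315 against vehicle and 2.40 ± 0.269 against day 0, and the count ratio against vehicle was 9.16 (95% interval 5.06 to 18.2).

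**Figure D2:**
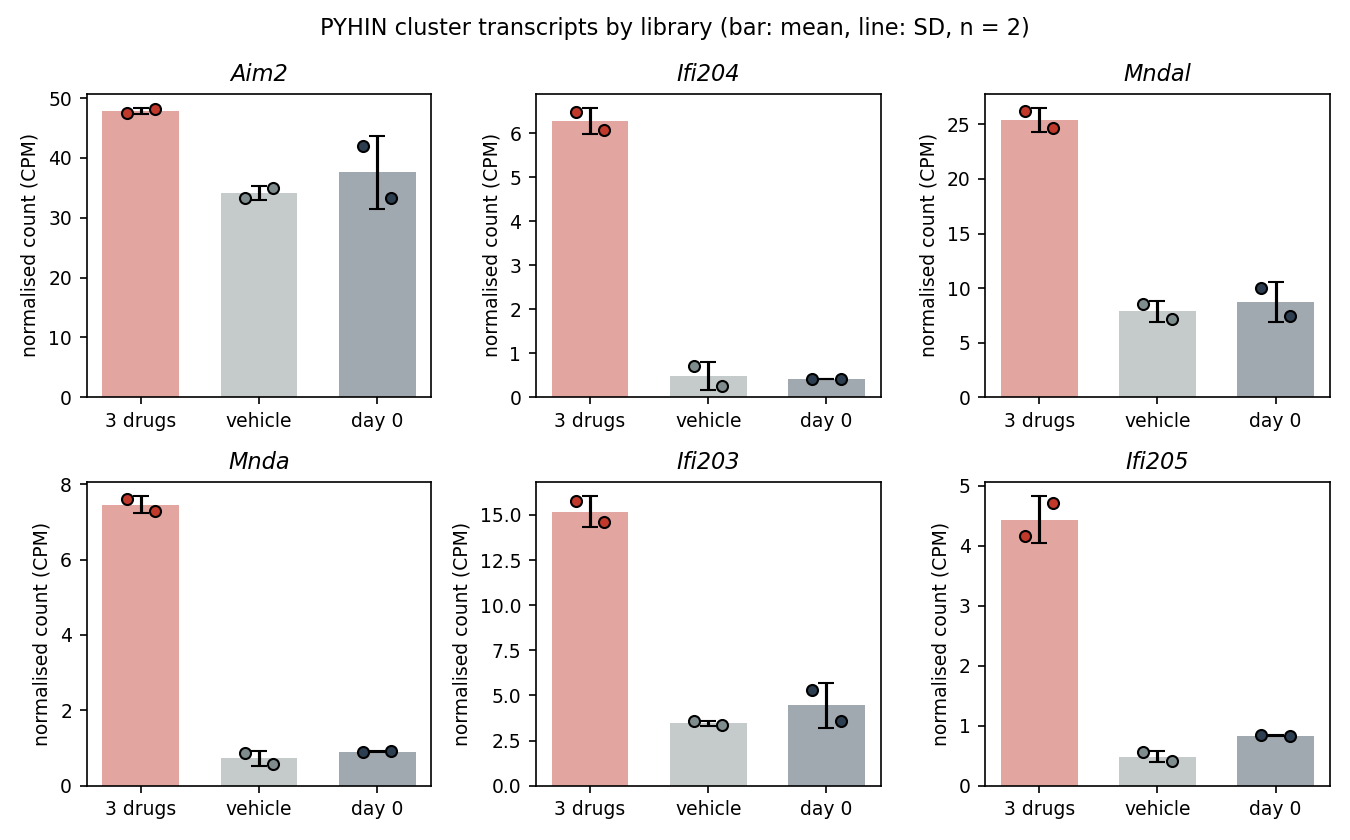
Normalised counts (CPM, y axis from 0, own scale for each gene) of the 6 genes in the 3 drugs, vehicle and day 0 groups. Points are libraries, bars are means and lines are SD (n = 2); for every gene both drug points lie above all other points, from 47.5 against at most 41.9 CPM for Aim2 to 6.07 against at most 0.711 CPM for Ifi204.

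In the edgeR quasi-likelihood test at an adjusted p of 0.05, 18.1% of 11283 tested genes were called higher with the drugs than with vehicle. Lower were 13.8%, and 31.9% were called either way. In the drugs and day 0 comparison 22.7% were called higher, 21.2% lower and 43.9% either way. Since the 6 genes were chosen on these same contrasts, their own outcomes in these tests are not reported. Drug libraries without overlap above vehicle were found for 35.1% of tested genes, and above day 0 for 37.2%. The comparisons share the drug libraries, so the second does not repeat the first. By log2 change against vehicle, Ifi204 was number 64 from the top of the 11283 tested genes, Mnda 84, Ifi205 95, Ifi203 208, Mndal 300 and Aim2 1595. Ifi204 and Ifi205 passed the filter on low counts only through the drug libraries and, for Ifi205, 1 untreated library: no vehicle library reached the 0.781 CPM at which the filter worked. That cutoff applies to counts over unscaled library totals, before TMM, so it cannot be set directly against the CPM printed here.

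In vehicle against day 0, which differ by 3 days of culture and by DMSO together, none of the 6 was called, while 3.75% of tested genes were called higher, 3.99% lower and 7.74% either way. The log2 changes were -0.15 ± 0.105 for Aim2, -0.16 ± 0.168 for Mndal, -0.40 ± 0.223 for Ifi203, -0.30 ± 0.395 for Mnda, -0.76 ± 0.445 for Ifi205 and 0.22 ± 0.574 for Ifi204. Vehicle lay below day 0 without overlap for Mnda, Ifi203 and Ifi205, as for 26.9% of tested genes, and the groups overlapped for Aim2, Ifi204 and Mndal. With 12 to 26 counts a group for Ifi204, Mnda and Ifi205, this depth leaves wide limits: the count ratio of vehicle to day 0 for Ifi205 was 0.584, with a 95% interval of 0.266 to 1.21. For Aim2, leaving out untreated replicate 2 turned the result into a call, with a log2 change of -0.30.

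**Figure D3:**
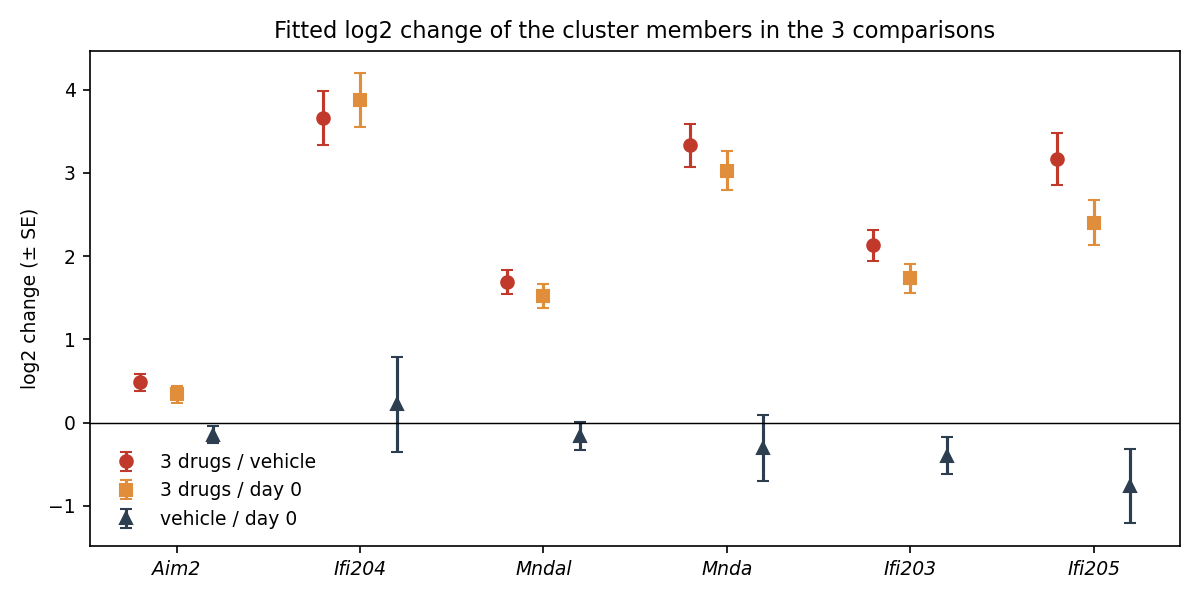
Fitted log2 change with SE (y axis) of the 6 genes in the 3 comparisons. The drug comparisons run from 0.34 for Aim2 to 3.88 for Ifi204, all above 0, and the vehicle and day 0 comparison lies between -0.76 and 0.22.

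Per kb of exon, the order of the genes was partly different with the drugs. Aim2 was the highest in every library, with 18.7 and 19.0 CPM per kb with the drugs, 13.2 and 13.8 with vehicle, and 16.5 and 13.1 in untreated cells. Mndal was second in every library, with 13.7 and 12.9 CPM per kb with the drugs, 4.48 and 3.77 with vehicle, and 5.24 and 3.88 in untreated cells. With the drugs Mnda came next (4.61 and 4.42 CPM per kb), ahead of Ifi203 (4.16 and 3.85). With vehicle Ifi203 came next (0.939 and 0.882), ahead of Mnda (0.527 and 0.355), and likewise in untreated cells, with 1.41 and 0.943 for Ifi203 and 0.544 and 0.554 for Mnda. Ifi204 and Ifi205 overlapped at the bottom, with the drugs (2.83 and 2.64 for Ifi204, 2.58 and 2.92 for Ifi205) and with vehicle (0.310 and 0.109 for Ifi204, 0.343 and 0.259 for Ifi205). In untreated cells Ifi205 (0.519 and 0.515) stood above Ifi204 (0.183 and 0.181). Of the summed CPM per kb of the 6 genes, Aim2 held 40.1% and 41.5% with the drugs, 66.6% and 72.0% with vehicle, and 67.7% and 68.3% in untreated cells. In CPM the other 5 genes together came to 60.2 and 57.3 with the drugs, 14.2 and 11.8 with vehicle, and 17.5 and 13.1 in untreated cells.

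How far the 5 related genes were counted apart from each other cannot be seen in the table, because neither read length nor the treatment of reads with several matches is stated in those sources that were used. Of the 50-base words in annotated transcripts of Mnda (GENCODE M21), 72.8% also occur in transcripts of another gene, 44.7% in Ifi205 and 30.1% in Ifi204. With 100-base words this was 56.9%. The share of 50-base words found in other genes was 20.0% for Ifi204, 19.6% for Mndal, 18.6% for Ifi205, 12.4% for Ifi203 and 0.74% for Aim2. The counts of Mnda are therefore uncertain as a measure of that gene alone, and the values of Aim2 are the least touched. Words were taken over all annotated transcripts of a gene, which hold more sequence than the counted exons. For Ifi205 there were 4175 words of 50 bases against 1613 bp of counted exons, and for Mndal 3718 against 1908 bp. The shared part of the counted exons of Ifi204, Ifi205 and Mndal was therefore not measured.

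The other 6 PYHIN genes of the locus were nearly uncounted. Pyhin1 (Ifi209 in RefSeq) was the one that passed the filter, with 20 and 16 counts with the drugs, 9 and 6 with vehicle, and 14 and 13 in untreated cells. Its log2 change against vehicle was 1.07 ± 0.426 and did not pass the test (adjusted p = 0.0734, edgeR). AI607873 (Ifi207 in RefSeq), the nearest neighbour of Ifi204, had 7 counts in each drug library and 0 in all 4 others. With 0 counts in the other groups no count ratio can be given. The lower 95% limit of that ratio was 2.92 against vehicle and 3.41 against day 0 (exact binomial, covering counting error only). BC094916 had 2 and 1 counts with the drugs, 0 with vehicle, and 0 and 2 in untreated cells. Pydc3 had 2 and 0 with the drugs, 0 with vehicle, and 1 and 2 in untreated cells. Pydc4 and Ifi202b had 0 counts in all 6 libraries. BC094916, Pydc4, Pydc3 and AI607873 carry the same ISRE letters as Mndal and Ifi203, at -79, -73, -58 and -41. AI607873 also held the PU.1 word at -69 and the GFI1 word, on the opposite strand, at -102. The part of these words in the levels was not tested. The window of AI607873 was 88.0% identical to that of Mnda over 291 columns. Pyhin1 and Ifi202b, like Aim2, had no ISRE match.

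**Figure D4:**
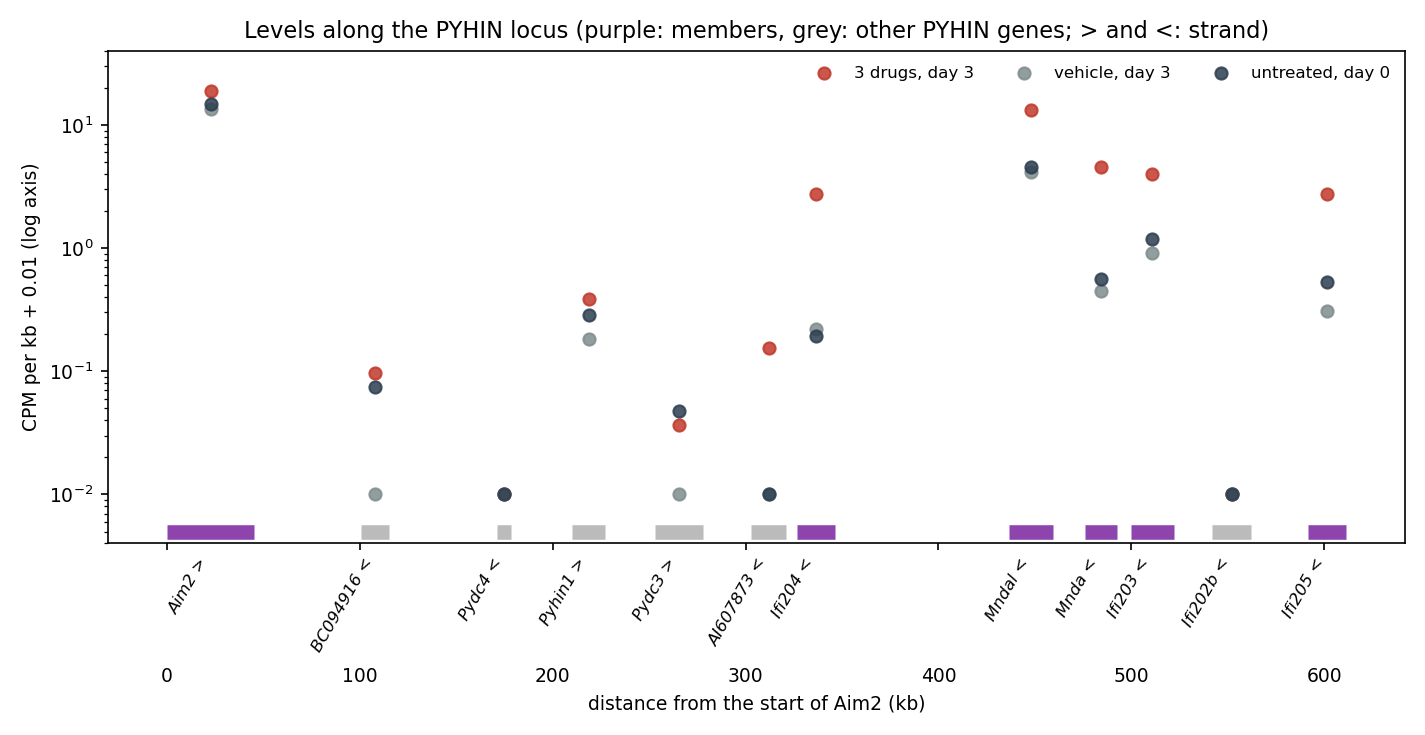
Mean level (CPM per kb plus 0.01, log axis) of the 12 PYHIN genes by distance from the start of Aim2 in kb, with gene bodies at the bottom (purple, the 6 genes described; grey, the other 6). The red points of the drugs stand apart from the grey and dark points of vehicle and day 0 for Mndal, Mnda, Ifi203, Ifi204, Ifi205 and AI607873. Those of Aim2 lie closer together, and the remaining genes stay under 0.4 CPM per kb or at 0. For AI607873, with 14 counts in all with the drugs and 0 in the other groups, the width of the gap depends on the added 0.01.

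Outside the locus, 41 genes lay within 1000 kb, many of them olfactory receptor genes, and 2 of these were tested. Neither was called against vehicle. Tagln2, which encodes the actin-binding protein transgelin-2, had 2537 and 3176 counts with the drugs, 2884 and 2821 with vehicle, and 4383 and 3229 in untreated cells, and was lower with the drugs than at day 0 (log2 change -0.38 ± 0.068, adjusted p = 0.000749, edgeR). Dusp23, a phosphatase gene, had 63 and 81 counts with the drugs, 47 and 46 with vehicle, and 46 and 47 in untreated cells (log2 change against day 0 0.66 ± 0.208, adjusted p = 0.0213, edgeR), a call lost without either drug replicate or without untreated replicate 1. The nearest neighbours with any count were Gm11062 before Aim2, with 1 count in all, and the olfactory receptor gene Olfr433 after Ifi205, with 5 and 6 counts with the drugs, 0 with vehicle, and 1 in each untreated library.

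The partners of AIM2 in the inflammasome and other genes of pyroptosis were next set beside the cluster. Of 13 tested genes among 15, 9 were higher and 0 lower against vehicle (18.1% and 13.8% over all tested genes), with a median log2 change of 0.49 against 0.0008 over all tested genes. Pycard, the gene of the adaptor ASC, had 20.6 and 21.8 CPM with the drugs, 13.9 and 16.8 with vehicle, and 20.0 and 15.2 in untreated cells. Its log2 change against vehicle was 0.47 ± 0.142 (adjusted p = 0.0240, edgeR), and the call was lost without drugs replicate 1, drugs replicate 2 or vehicle replicate 1. The drug range overlapped neither vehicle nor day 0. Casp1, the gene of caspase-1, had 24.8 and 25.9 CPM with the drugs, 15.3 and 15.5 with vehicle, and 14.1 and 14.2 in untreated cells (log2 change against vehicle 0.73 ± 0.103, adjusted p = 0.000165, edgeR). Nlrp3, the sensor of another inflammasome, had 656 and 884 counts with the drugs, 19 and 26 with vehicle, and 73 and 60 in untreated cells. Naip5, a flagellin receptor gene, rose by 0.82 ± 0.0874 on the log2 scale. The substrates of caspase-1 had few counts: Il18 had 12 and 13 counts with the drugs, 1 and 3 with vehicle, and 2 and 1 in untreated cells, and Il1b had at most 5 counts in any library. The call of Il18 was lost without drugs replicate 1 or vehicle replicate 1. Against day 0, 7 of the 13 were higher and 0 lower (22.7% and 21.2% over all tested genes).

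Among genes for sensing of nucleic acids, 10 of 17 tested (of 18) were higher than with vehicle and 0 lower, where 18.1% and 13.8% of all tested genes were, with a median log2 change of 0.43. Cgas, which makes the second messenger that activates STING and is listed in the table as E330016A19Rik, did not pass (33.8 and 34.5 CPM with the drugs, 33.5 and 31.8 with vehicle, 35.9 and 34.2 in untreated cells, adjusted p = 0.606, edgeR). Sting1, listed as Tmem173, had 43.6 and 42.2 CPM with the drugs, 25.9 and 28.2 with vehicle, and 31.3 and 29.9 in untreated cells (log2 change against vehicle 0.66 ± 0.0872, adjusted p = 8.26e-05, edgeR). Unc93b1, which carries endosomal Toll-like receptors to their compartment, had 179.6 and 197.9 CPM with the drugs, against 56.4 and 60.5 CPM with vehicle. Ifih1, an RNA sensor gene, rose by 0.70 ± 0.0860 on the log2 scale. Tlr9, the endosomal receptor for DNA, had 18 and 24 counts with the drugs, 2 and 3 with vehicle, and 12 and 4 in untreated cells. Against day 0, 10 of the 17 were higher and 0 lower, where 22.7% and 21.2% of all tested genes were.

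Ifnb1, the gene of interferon beta, had 0 counts in all 6 libraries. Of the receptor and signalling genes, 8 of 16 tested (of 20) were higher against vehicle and 1 was lower (18.1% and 13.8% over all tested genes), with a median log2 change of 0.30. Without drugs replicate 1 the number higher was 5. Ifngr2, a chain of the interferon gamma receptor, had 56.5 and 55.8 CPM with the drugs, against 19.8 and 21.2 CPM with vehicle (log2 change 1.46 ± 0.0874, adjusted p = 6.09e-08, edgeR). Irf8, a transcription factor of the monocyte and dendritic lineages, had 28.3 and 32.7 CPM with the drugs, against 6.24 and 6.35 CPM with vehicle. Stat3 rose by 0.53 ± 0.0676, and Ifnar1, a chain of the type I interferon receptor, by 0.35 ± 0.0763, both on the log2 scale against vehicle. The gene that was lower was Jak2, a kinase bound to the interferon gamma receptor, named here after its value was seen, and that call was lost without either drug replicate or without vehicle replicate 1. Irf7, a factor that drives interferon genes and is itself induced by interferon, had 24 and 27 counts with the drugs, 6 and 9 with vehicle, and 19 and 14 in untreated cells, and its call against vehicle was lost without vehicle replicate 1.

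Of the interferon-stimulated genes outside the cluster, 28 of 36 were tested. Against vehicle 8 were higher and 2 lower, where 18.1% and 13.8% of all tested genes were, and the median log2 change was 0.29. Against day 0, 5 were higher and 6 lower, shares near the 22.7% and 21.2% of all tested genes, and the median was -0.02. The number higher than vehicle was 2 without drugs replicate 1, 5 without drugs replicate 2 and 4 without vehicle replicate 1. The number higher than day 0 was 2 without drugs replicate 1, 3 without drugs replicate 2 and 3 without untreated replicate 2. Oas3, of the enzymes that switch on RNase L, had 51 and 54 counts with the drugs, 14 and 9 with vehicle, and 25 and 18 in untreated cells. Ifit1 had 17 and 16 counts with the drugs, 3 and 2 with vehicle, and 9 and 5 in untreated cells. Ifitm3, which restricts virus entry, had 15.7 and 16.8 CPM with the drugs, against 24.4 and 31.7 CPM with vehicle (log2 change -0.78 ± 0.147, adjusted p = 0.00136, edgeR), and Ifit2, the second gene lower than vehicle, was named after its value was seen and was not called without either drug replicate or without vehicle replicate 1. Isg15 and Mx1, further standard interferon targets that were also named after their values were seen, had at most 4 counts in any library.

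**Figure D5:**
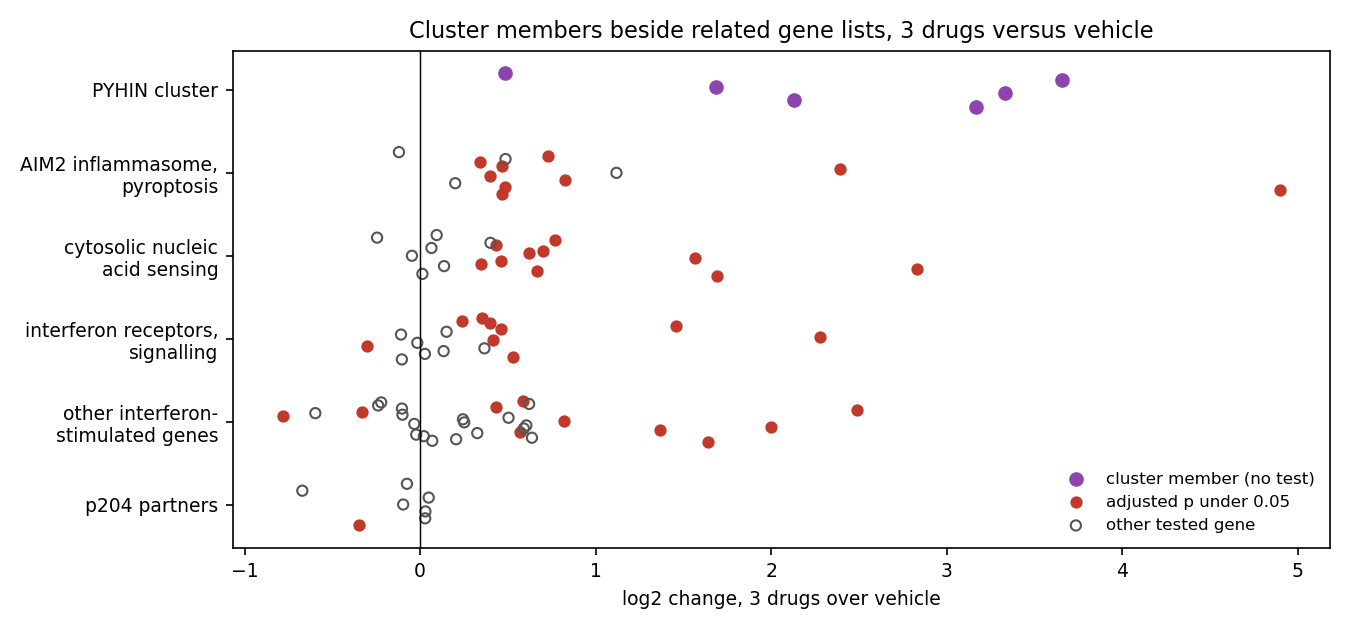
Log2 change, 3 drugs over vehicle (x axis), of the 6 PYHIN genes (purple, no test) and of the tested genes of 5 related lists (filled red, adjusted p under 0.05; open, other tested genes). Points are genes; Ifi204, Mnda and Ifi205 lie above 3, where 1 list gene, Nlrp3, also lies.

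Of the proteins described to bind p204, 7 of 10 were tested. Against vehicle 0 were higher and 1 was lower, where 13.8% of all tested genes were lower: Ubtf, the gene of the ribosomal RNA transcription factor UBF, with 153.7 and 147.4 CPM with the drugs, 195.6 and 187.2 with vehicle, and 207.1 and 199.1 in untreated cells (log2 change -0.35 ± 0.0693, adjusted p = 0.00215, edgeR, a call lost without drugs replicate 2). The retinoblastoma gene Rb1 had 71.0 and 68.2 CPM with the drugs, against 71.1 and 63.3 CPM with vehicle. In vehicle against day 0, the 5 lists, with 13, 17, 16, 28 and 7 tested genes, held 3 genes called higher (Naip2, Ikbke and Rbl1) and 3 called lower (Nlrp3, Irf5 and Ifi47), where 3.75% and 3.99% of all tested genes were.

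Over the 6 libraries, the genes outside the cluster whose profile was nearest to each member (Euclidean distance of centred log2(CPM + 1), 9446 candidates) differed between members. Ifi204 and Mnda shared Deptor, an inhibitor of the kinase mTOR, as their nearest (distances 0.280 and 0.283), and both had Slc11a1, a metal transporter of phagocytes, among their 3 nearest (0.407 and 0.359). Camk1d (0.349) completed the set for Ifi204 and D1Ertd622e (0.366) that for Mnda. Ifi205 was nearest to Arid5b (0.203), Ephb2 (0.226) and Armcx4 (0.237), and Ifi203 to Tnfaip1 (0.328), Jhdm1d (0.335) and Ephb2 (0.361). Mndal was nearest to Creb3 (0.214), Txndc16 (0.230) and Wdr35 (0.237). Aim2 was nearest to 5033414D02Rik (0.0929), Npc2 (0.0930) and Oaf (0.108), whose first untreated library also stood apart from the second. Within the cluster the closest pairs were Ifi204 with Mnda (0.280) and Ifi203 with Mndal (0.308), and Aim2 was at least 1.30 from every other member. The members share all 6 libraries, so these distances describe the libraries only. Adding 1 CPM before the log shrinks the changes of genes near that level, as Ifi204, Mnda and Ifi205 were outside the drug group. Ifi204 averaged 6.28 CPM with the drugs and 0.481 with vehicle, against 18.06 and 3.363 CPM for Deptor. For these genes a small distance does not mean an equal fold change.

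Markers of cell types moved beside the cluster. The 10 progenitor markers, all counted, summed to 10780 to 11310 CPM with the drugs, 8647 to 8867 with vehicle and 7723 to 8056 in untreated cells. Most of that sum was Mpo, with 6517 and 6954 CPM with the drugs, 4647 and 4646 with vehicle, and 3495 and 4027 in untreated cells. In the same list Ctsg (log2 change against vehicle -0.37 ± 0.105, a call lost without either drug replicate or without vehicle replicate 2) and Cebpa (-0.37 ± 0.0661) were lower with the drugs. The 10 macrophage markers summed to 93.8 to 93.9 CPM with the drugs, 22.8 to 26.9 with vehicle and 31.1 to 34.9 in untreated cells. Most of that sum was Adgre1, listed as Emr1, with 67.84 and 66.47 CPM with the drugs, 20.55 and 17.64 with vehicle, and 28.96 and 24.77 in untreated cells. Of the 10, C1qa, C1qc, Mertk and Marco had 0 counts, 7 stayed under 1 CPM, and Csf1r had 15.3 and 16.3 CPM with the drugs, against 1.58 and 1.92 CPM with vehicle. Dendritic cell markers summed to 580.0 to 597.7 CPM with the drugs, 318.6 to 320.2 with vehicle and 255.3 to 256.9 in untreated cells, most of it Flt3, which progenitors also express, and Cd209a had 0 counts. Itgax of the same list was lowest with the drugs. It had 3.364 and 2.646 CPM with the drugs, 4.427 and 3.512 with vehicle, and 8.137 and 6.815 in untreated cells. Its log2 change against vehicle was -0.42 ± 0.233 and was not called (adjusted p = 0.193, edgeR). Neutrophil markers summed to 76.0 to 78.3 CPM with the drugs, 56.02 to 56.68 with vehicle and 54.7 to 60.7 in untreated cells, with Camp and Retnlg at 0. Among them Mmp9 had 70 and 74 counts with the drugs, 2 and 1 with vehicle, and 4 and 2 in untreated cells. S100a8 and Cxcr2 had negative changes against vehicle that were not called. Mast cell and basophil markers summed to 1289 to 1381 CPM with the drugs, 553.3 to 568.4 with vehicle and 981.4 to 1166 in untreated cells, with Fcer1a, Tpsb2 and Tpsab1 at 0. Most of this sum was Cpa3. It had 1189 and 1105 CPM with the drugs, 469.5 and 451.5 with vehicle, and 1057 and 871.5 in untreated cells. Two-way movement was seen in this list. Against vehicle, Hdc (log2 change 2.84 ± 0.09945) and Gata2 (0.51 ± 0.0674) were called higher, as was Cpa3. Mcpt8 was called lower (-0.30 ± 0.1065, adjusted p = 0.0469, edgeR), and the negative change of Ms4a2 (-0.69 ± 0.370) was not called (adjusted p = 0.176, edgeR). Erythroid and megakaryocyte markers summed to 14.2 to 18.3 CPM with the drugs, 14.4 to 18.3 with vehicle and 31.3 to 42.4 in untreated cells, with Hba-a1 and Car1 at 0. B and T cell markers (9 found of 10) summed to 4.33 to 4.45 CPM with the drugs, 2.76 to 3.40 with vehicle and 3.74 to 4.43 in untreated cells, with Cd3e, Cd3g and Cd4 at 0. The part of these shifts in the levels of the PYHIN genes was not tested, and in RNA from whole cultures a change in the share of cells that express a gene and a change in RNA per cell cannot be told apart. Gfi1b, which encodes a repressor that recruits LSD1, had 1104 and 1352 counts with the drugs, 1 and 0 with vehicle, and 5 and 3 in untreated cells. Spi1, listed as Sfpi1 and encoding PU.1, had 79.6 and 77.3 CPM with the drugs, 59.3 and 65.1 with vehicle, and 56.9 and 55.8 in untreated cells (log2 change against vehicle 0.34 ± 0.0737, adjusted p = 0.00397, edgeR, a call lost without drugs replicate 1).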

How the data were processed

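The deposited table holds the authors' counts, raw and per gene. Its Length column, in bp (another unit, as deposited), gave CPM per kb and equalled the union of annotated exons of the members. The submitters' processing notes name STAR 2.7.0f, mm10 and deepTools 3.0.2. Per the labels, the table came from featurecount. The strand setting, the counting of multi-mapped reads and the annotation release were not stated in the sources used here. Of 23337 genes, 8069 had 0 counts and 11283 passed filterByExpr (minimum count 10). Libraries were scaled by TMM and all 3 groups fitted in 1 quasi-likelihood model with edgeR 4.0.16 under R 4.3.3 (3 residual degrees of freedom, common biological coefficient of variation 0.0592, prior count 0.125). Benjamini-Hochberg adjustment ran over all tested genes, with a threshold of 0.05. The SE was derived from the F statistic. The script was tested on simulated data.

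Promoters and names came from RefSeq (GRCm38.p6) and transcripts from GENCODE M21. The promoter table matched 11 of the 12 PYHIN genes, and the missing one is Ifi204. Protein sequences were not used here. The labels call the replicates biological without saying what separates them, so p values measure the spread between these libraries. Chi-square per degree of freedom between replicates was 1.85 with the drugs, 5.78 with vehicle and 14.1 in untreated cells. Rn45s, the ribosomal RNA precursor, took 14.62% to 16.12% of counts at day 3 and 20.45% and 24.64% in untreated cells.

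The members and lists were chosen with earlier results of these data known. Named were all members, the other PYHIN genes, the nearest counted and any called flanking genes, up to 3 called genes per list with the smallest p and 2 with the largest change, 11 set genes, and the 3 nearest profiles per member among genes averaging at least 5 CPM. Not every gene that this rule takes in the comparisons with day 0 is printed. Of the set genes, 1 is not reported here. Alternatives were DESeq2 1.42.0, library totals, Rn45s left out, no filter, only the 2 groups compared, a replicate block, a crossed block and each library left out.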

Additional observations from a re-analysis of the deposited data

How the results depend on the processing

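The 6 PYHIN genes were picked on these same counts, so their outcomes in the drug comparisons under alternatives are not given and would say nothing of stability. In vehicle against day 0 the number called was 0, or 1 (Aim2, lower) without untreated replicate 2. Over all genes, drugs against vehicle called 3601 genes, and 1833 to 4191 with each library left out in turn, fewest without drugs replicate 1 (2056 without drugs replicate 2). Drugs against day 0 called 4958, and 2872 to 5142 with each library left out, fewest again without drugs replicate 1. Vehicle against day 0 called 873, and 351 to 2012 with each library left out. It called 1957 with library totals, 1664 with no filter, 527 with only the 2 groups compared and 491 with DESeq2. With library totals 1741 of these were higher and 216 lower, against 423 and 450 with TMM, and the median of all genes shifted to 0.104. None of the 6 genes was called in that comparison with library totals. The cause of these shifts was not tested. Deviations of libraries with the same replicate number correlated at 0.0807 for drugs and vehicle, -0.0604 for drugs and day 0 and -0.199 for vehicle and day 0, so the numbers were not shown to pair the cultures. A replicate block gave 2958, 4327 and 483 calls in the 3 comparisons. A crossed block for the untreated numbers, chosen after seeing the data, gave 4719, 6046 and 2380. In vehicle against day 0 none of the 6 genes was called under either block. Among the lists, interferon-stimulated genes depended most on the setting: 8 were higher than vehicle, and 5 with library totals or DESeq2. At 3 to 15 counts a library outside the drug group, levels of Ifi204, Mnda and Ifi205 there carry a large counting error.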
